A study of Mus musculus with 6 samples.

Results

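Cholesterol is built in the cell from acetyl-CoA and is kept within a narrow range by sterol sensors, and 31 genes of this system were followed in sorted mouse hair germ cells with and without 2 Wnt-pathway transcription factors. The genes were taken as a list by their symbols, 31 of the 46517 genes in the files, and all 31 passed the filter on low counts. They comprise 20 enzymes of cholesterol synthesis, 5 genes that control the sterol-sensing SREBP transcription factors, 3 genes of sterol transport and storage and 3 genes of the LXR and efflux arm.

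RNA was sequenced from back skin of mice of mixed sex at postnatal day 60, on day 3 after the hair was depilated, a treatment that starts a new hair growth phase. Cells were sorted as hair germ stem cells with YFP, integrin b1, CD34, Sca-1 and Pcadherin. The hair germ is the cluster of epithelial progenitors at the base of the resting follicle. There were 3 groups of 2 libraries, and every group, WT included, carried Sox9-CreER and R26-lox-stop-lox-YFP. WT had no further allele, LEF1cKO added Lef1fl/fl, and LEF1_TCF7dKO, the double knockout, added Lef1fl/fl and Tcf7-/-. Loss of Lef1 was therefore limited to cells in which the Sox9-driven CreER had acted, whereas the Tcf7 null allele was present in the whole animal. The labels do not say whether the 2 libraries of a group came from separate animals, so p-values measure the spread between these libraries, which may be technical. The libraries held 40480694 to 63220022 expected counts, and every one of the 31 genes had at least 233 counts in each library.

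The targeted genes were read first. Levels of Lef1 were 21.4 and 20.4 TPM for WT, 13.5 and 8.37 TPM for LEF1cKO and 9.22 and 9.42 TPM for LEF1_TCF7dKO, and those of Tcf7 were 26.9 and 36.01 TPM for WT, 29.3 and 27.8 TPM for LEF1cKO and 13.7 and 18.00 TPM for LEF1_TCF7dKO. Lef1 was lower in both knockout groups than in WT, but against WT it passed the test only in the double knockout, with a log2 fold change of -1.27 (adjusted p = 0.0122), and not in LEF1cKO, with -0.92 (adjusted p = 0.282). Tcf7 passed in the double knockout against WT, with -1.37 (adjusted p = 0.00641), and against LEF1cKO, with -1.12 (adjusted p = 0.018). Neither gene was near 0. These are values over whole genes, and the source of the remaining reads was not tested. The defining hair germ and basal genes were present in every library, with Lhx2 at 337 and 381 TPM for WT, 402 and 368 TPM for LEF1cKO and 114 and 198 TPM for LEF1_TCF7dKO, and Cdh3, which encodes P-cadherin, at 134 and 130.1 TPM for WT, 134 and 116 TPM for LEF1cKO and 65.9 and 85.9 TPM for LEF1_TCF7dKO. Members of this list of 11 genes moved both ways in the double knockout against WT: 5 rose and 4 fell, beside 18.0% and 19.6% of all genes tested. None passed in LEF1cKO, where 0.601% of all genes tested were called. The log2 fold changes of those that fell were -1.38 (adjusted p = 0.0118) for Lhx2, -0.93 (adjusted p = 0.0109) for Cdh3, -1.07 (adjusted p = 0.0208) for Lgr5 and -0.71 (adjusted p = 0.0198) for Sox9. Ly6a and Cd34, the genes of the sort antigens Sca-1 and CD34, rose, with log2 fold changes of 2.22 (adjusted p = 0.00968) and 1.54 (adjusted p = 0.00954). Ly6a stood at 26.5 and 14.7 TPM for WT, 21.8 and 45.9 TPM for LEF1cKO and 111 and 97.3 TPM for LEF1_TCF7dKO, and Cd34 at 13.5 and 8.72 TPM for WT, 11.3 and 17.8 TPM for LEF1cKO and 41.96 and 30.9 TPM for LEF1_TCF7dKO. The basal keratin genes Krt14 and Krt15 rose by 1.02 (adjusted p = 0.0231) and 1.21 (adjusted p = 0.0225), and the integrin gene Itga6 by 0.49 (adjusted p = 0.0144). Without WT replicate 1 only Lhx2, Cd34 and Ly6a of these 9 were called, without WT replicate 2 none were (0 of 11), without double knockout replicate 1 only Lhx2 and Krt15 were, and without double knockout replicate 2 Krt14 and Krt15 were lost. The part of these shifts in the sterol gene results was not tested.

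In cholesterol synthesis, acetyl-CoA units are joined to mevalonate and then to farnesyl diphosphate, a branch point that also feeds protein prenylation. Farnesyl units are joined to squalene, squalene is closed to lanosterol, and lanosterol is trimmed and reduced to cholesterol. When membrane sterol is low, SCAP carries SREBP proteins from the endoplasmic reticulum to the Golgi, where they are cut and released to activate the genes of synthesis. When sterol is high, INSIG proteins hold SCAP back, and oxysterols activate the LXR receptors, which raise the sterol exporters. Skin epithelium makes much of its own cholesterol, which it uses in membranes and in the barrier lipids of the outer epidermis, and sebaceous gland cells make and esterify sterols for sebum.

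In LEF1cKO, no difference in any of the 31 genes passed the test. In LEF1cKO against WT, 0 of the 31 genes were called at an adjusted p under 0.05 by edgeR's quasi-likelihood test with Benjamini-Hochberg adjustment over all 19640 genes tested, where 0.601% of genes were called (0.224% higher and 0.377% lower). DESeq2 also called 0, and 0 had an unadjusted p under 0.05. Their median log2 fold change was -0.01, beside 0.01 over all genes tested. In TPM (a level corrected for transcript length and for the total of the library), both LEF1cKO libraries lay above both WT libraries for 4 genes and below for 3, against 28.3% and 13.4% of all tested genes. The libraries of the 2 groups overlapped for the other 24. Soat1, which encodes the enzyme that esterifies cholesterol for storage, had the largest fitted value, log2 fold change 1.02 ± 0.86 (SE), adjusted p = 0.803. That value came from 1 library, since Soat1 stood at 5.55 TPM in LEF1cKO replicate 1 and 37.8 TPM in replicate 2.

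In the double knockout, 7 of the 31 genes rose and 1 fell against WT. Those that rose were Soat1 and Npc1 of sterol storage and transport, the exporters Abca1 and Abcg1, Srebf1 and Scap of SREBP control, and the single synthesis enzyme Pmvk. The gene that fell was Lbr. These 8 genes are 25.8% of the list, and 37.6% of all tested genes were called in the same comparison (18.0% higher and 19.6% lower), so the share of sterol genes called was no larger than that of genes in general. The median log2 fold change of the 31 genes was 0.21, beside 0.01 over all genes tested, and 22 of the 31 lay above 0. In TPM, both double knockout libraries lay above both WT libraries for 15 genes and below for 2, against 43.4% and 30.7% of all tested genes. Values on the TPM scale lie somewhat higher in the double knockout than the fitted counts do: a limma fit to log2(TPM + 1) gave a median of 0.40 for the sterol genes and 0.07 for all genes tested. Both knockout groups were compared with the same 2 WT libraries. In bulk RNA of sorted cells, fewer cells of a type and less RNA per cell cannot be told apart.

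**Figure D1:**
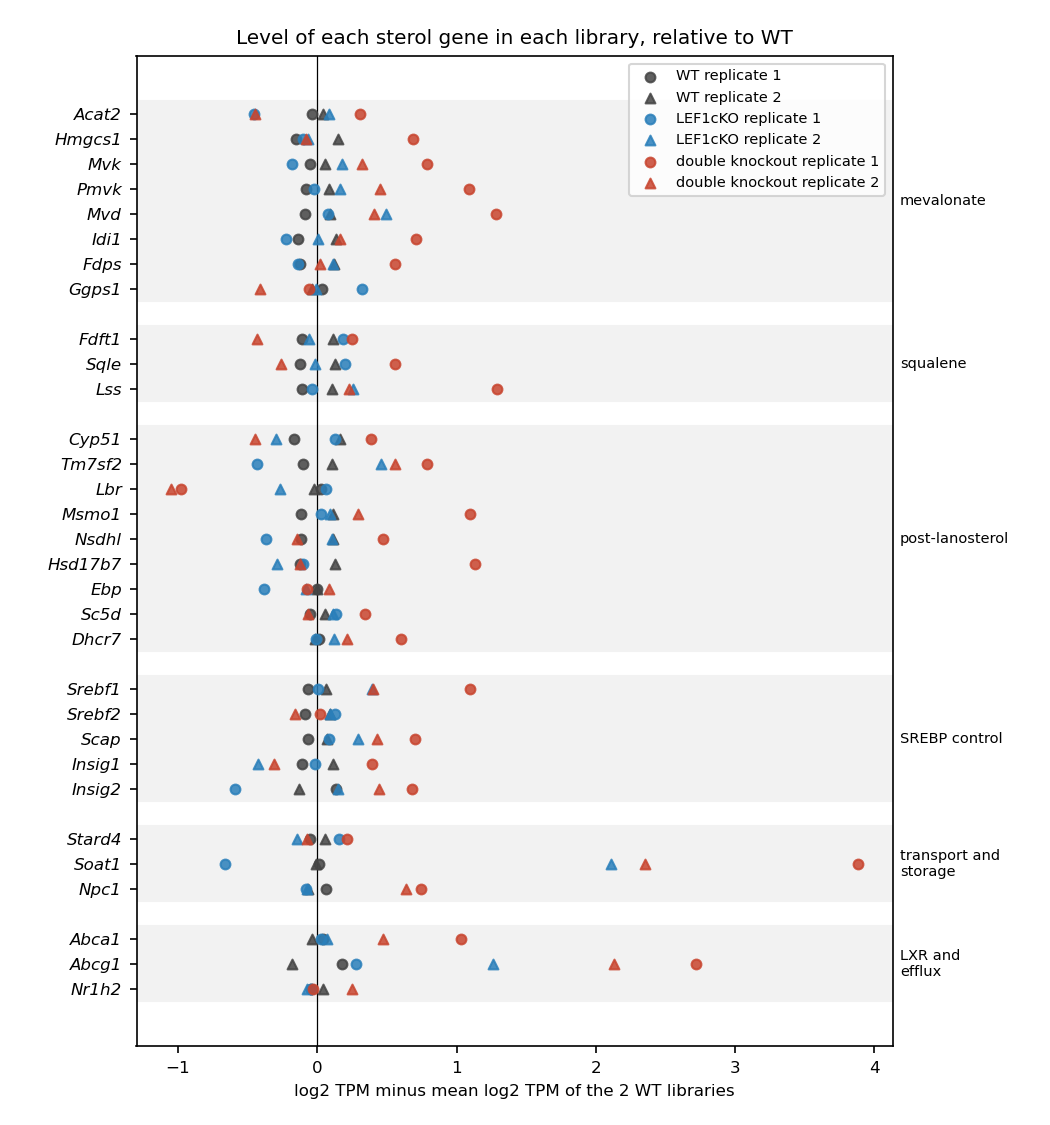
Level of each of the 31 sterol genes in each of the 6 libraries, as log2 TPM minus the mean log2 TPM of the 2 WT libraries; rows are genes grouped by role, circles are replicate 1 and triangles replicate 2. Soat1 reaches the highest values (8.84 and 8.73 TPM in WT against 129.7 and 44.9 TPM in the double knockout), Lbr the lowest in both double knockout libraries, and for most enzymes double knockout replicate 1 lies to the right of replicate 2.

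The first part of the pathway, from acetyl-CoA to farnesyl and geranylgeranyl diphosphate, had 1 of 8 genes called in the double knockout against WT. Pmvk, phosphomevalonate kinase (mm10, as for all gene positions here, chr3:89454541-89469013, plus strand), stood at 41.97 and 47.2 TPM for WT, 43.9 and 49.8 TPM for LEF1cKO and 94.5 and 60.8 TPM for LEF1_TCF7dKO. Both double knockout libraries lay above the other 4, and replicate 1 was well above replicate 2. Pmvk rose (log2 fold change 0.65 ± 0.19 (SE), adjusted p = 0.0421). The call was lost when any library but double knockout replicate 2 was left out, with adjusted p = 0.187 and 0.122 without WT replicate 1 or 2, 0.0514 and 0.0566 without LEF1cKO replicate 1 or 2 and 0.126 without double knockout replicate 1. Over all alternatives its adjusted p ran from 0.0124 to 0.187. Fitted on the 4 libraries of these groups alone it gave adjusted p = 0.0514.

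The other mevalonate genes did not pass. Hmgcs1, the HMG-CoA synthase that is among the best known SREBP targets, stood at 238 and 292 TPM for WT, 246 and 251 TPM for LEF1cKO and 423 and 249.5 TPM for LEF1_TCF7dKO. Double knockout replicate 1 was the highest of the 6 libraries and replicate 2 lay between the WT libraries. Its fitted value was 0.20 (adjusted p = 0.557). Mvd, mevalonate diphosphate decarboxylase, stood at 22.97 and 26.03 TPM for WT, 25.7 and 34.4 TPM for LEF1cKO and 59.5 and 32.4 TPM for LEF1_TCF7dKO, and Mvk, mevalonate kinase, at 42.03 and 45.2 TPM for WT, 38.4 and 49.3 TPM for LEF1cKO and 75.2 and 54.5 TPM for LEF1_TCF7dKO. Both genes had all double knockout libraries above WT, with log2 fold changes of 0.76 (adjusted p = 0.0749) and 0.43 (adjusted p = 0.114). Idi1, the isopentenyl diphosphate isomerase, and Fdps, farnesyl diphosphate synthase, gave 0.21 (adjusted p = 0.436) and 0.17 (adjusted p = 0.51). Acat2, the cytosolic thiolase at the entry of the pathway, gave -0.17 (adjusted p = 0.632). Ggps1, which makes geranylgeranyl diphosphate for prenylation and not for sterols, stood at 16.2 and 15.5 TPM for WT, 19.8 and 15.8 TPM for LEF1cKO and 15.2 and 11.9 TPM for LEF1_TCF7dKO. It was the mevalonate gene with the lowest fitted value, -0.37 (adjusted p = 0.17), and both double knockout libraries lay below WT.

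The promoters of Hmgcs1 and Pmvk are shown because each holds a match to a motif that LEF and TCF factors are known to bind, and that of Hmgcs1 also a sterol regulatory element, the site SREBP proteins bind. They are RefSeq sequences of build GRCm38.p6, from 250 bases before to 50 after the start site, with matches on either strand in capitals for the sterol regulatory element TCACNCCAC, the CCAAT box, and the LEF/TCF type motifs CTTTGAA, or CTTTGAT, or CTTTGTT, or CTTTGTA. The Hmgcs1 window is chr13:119690101-119690400, plus strand, and the Pmvk window, the first of 2 listed, is chr3:89454291-89454590, plus strand.
Hmgcs1: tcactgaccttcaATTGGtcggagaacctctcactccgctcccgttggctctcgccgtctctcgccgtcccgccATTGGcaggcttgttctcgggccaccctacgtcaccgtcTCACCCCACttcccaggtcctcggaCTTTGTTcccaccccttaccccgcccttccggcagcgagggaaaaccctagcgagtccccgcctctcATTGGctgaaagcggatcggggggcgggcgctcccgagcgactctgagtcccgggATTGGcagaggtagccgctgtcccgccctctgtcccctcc
Pmvk: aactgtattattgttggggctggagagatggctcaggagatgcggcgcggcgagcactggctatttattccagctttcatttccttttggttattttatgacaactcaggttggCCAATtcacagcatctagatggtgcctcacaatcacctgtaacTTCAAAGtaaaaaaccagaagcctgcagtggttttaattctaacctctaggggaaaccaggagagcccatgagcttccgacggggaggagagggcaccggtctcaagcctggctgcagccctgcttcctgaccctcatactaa
Of the sterol genes with a promoter entry, only Hmgcs1 had a match to TCACNCCAC in its window, 137 bases before its start site. It also has 4 CCAAT boxes and 1 LEF/TCF type match. Pmvk has 1 CCAAT box and 1 LEF/TCF type match in the window shown, and neither in its second window. Hsd17b7, an enzyme after lanosterol, also has a LEF/TCF type match and is not shown. Such a match was present in 9.1% of the windows of the list, against 16.9% of all promoters.

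From farnesyl diphosphate to lanosterol, edgeR and DESeq2 called 0 of 3 genes, and 0 had an unadjusted p under 0.05. Fdft1, squalene synthase, stood at 60.9 and 71.02 TPM for WT, 74.7 and 63.05 TPM for LEF1cKO and 78.3 and 48.8 TPM for LEF1_TCF7dKO. Sqle, squalene epoxidase, stood at 71.9 and 85.8 TPM for WT, 90.3 and 77.8 TPM for LEF1cKO and 116 and 65.7 TPM for LEF1_TCF7dKO. In both genes double knockout replicate 1 was the highest of the 6 libraries and replicate 2 was lower than either WT library. Lss, lanosterol synthase, stood at 33.9 and 39.3 TPM for WT, 35.6 and 43.6 TPM for LEF1cKO and 89.1 and 42.8 TPM for LEF1_TCF7dKO, with double knockout replicate 1 more than 40 TPM above every other library. The fitted values were -0.20 (adjusted p = 0.536) for Fdft1, 0.07 (adjusted p = 0.86) for Sqle and 0.63 (adjusted p = 0.157) for Lss.

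Among the 9 enzymes that turn lanosterol into cholesterol, 1 was called, and it fell. Lbr (chr1:181815335-181843046, minus strand) encodes the lamin B receptor, a protein of the inner nuclear membrane that tethers chromatin and is also a sterol reductase. It stood at 104 and 100.4 TPM for WT, 107 and 84.7 TPM for LEF1cKO and 51.8 and 49.3 TPM for LEF1_TCF7dKO. Both double knockout libraries were at about the same level and below all 4 others. Lbr fell in the double knockout (log2 fold change -1.16 ± 0.15 (SE), adjusted p = 0.0044) to 0.448 of the WT level. The call held in all 16 alternatives, with adjusted p from 2.1e-09 to 0.0377. The 10 proliferation markers also fell in the double knockout against WT, beside 19.6% of all genes tested that were called lower. Their summed level was 2142 and 2066 TPM for WT, 2135 and 1686 TPM for LEF1cKO and 838 and 776 TPM for LEF1_TCF7dKO. The part of these markers in the Lbr difference was not tested.

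Tm7sf2 encodes a second sterol reductase that carries out the same step as Lbr. Its level was lower than that of Lbr and stood at 10.96 and 12.7 TPM for WT, 8.72 and 16.2 TPM for LEF1cKO and 20.4 and 17.3 TPM for LEF1_TCF7dKO. Both double knockout libraries were above all others, but the LEF1cKO libraries were far apart and the difference did not pass, with 0.59 (adjusted p = 0.174). The promoter of Lbr is shown beside its fall (chr1:181842352-181842651, minus strand, with matches in capitals as above). Its window has 2 CCAAT boxes, no match to TCACNCCAC and no LEF/TCF type match.
Lbr: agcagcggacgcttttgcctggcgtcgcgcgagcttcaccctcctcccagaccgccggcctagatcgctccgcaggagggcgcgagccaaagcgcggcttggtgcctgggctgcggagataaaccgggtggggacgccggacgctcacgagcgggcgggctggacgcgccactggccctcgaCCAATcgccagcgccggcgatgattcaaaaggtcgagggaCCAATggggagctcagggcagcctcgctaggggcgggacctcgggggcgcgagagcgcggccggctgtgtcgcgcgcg

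The other 7 enzymes after lanosterol were not called. Msmo1, the oxidase that removes methyl groups from the sterol ring, stood at 126 and 148 TPM for WT, 139 and 145 TPM for LEF1cKO and 291 and 167 TPM for LEF1_TCF7dKO. Hsd17b7, a sterol ketone reductase, stood at 15.02 and 17.8 TPM for WT, 15.2 and 13.4 TPM for LEF1cKO and 35.9 and 15.00 TPM for LEF1_TCF7dKO. For Hsd17b7 the whole difference lay in double knockout replicate 1, because replicate 2 was level with the lower WT library. The fitted values were 0.57 (adjusted p = 0.132) and 0.62 (adjusted p = 0.186), and without double knockout replicate 1 that of Hsd17b7 was -0.02. Dhcr7, which carries out a final reduction to cholesterol, stood at 45.6 and 44.8 TPM for WT, 44.95 and 49.1 TPM for LEF1cKO and 68.5 and 52.5 TPM for LEF1_TCF7dKO and gave 0.29 (adjusted p = 0.119). Cyp51, the lanosterol demethylase, Nsdhl, the sterol dehydrogenase that acts with Msmo1, Ebp, the sterol isomerase, and Sc5d, the sterol desaturase, had fitted values between -0.05 (adjusted p = 0.76) for Ebp and 0.07 (adjusted p = 0.862) for Cyp51.

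Srebf1 and Scap of the 5 SREBP control genes rose. Srebf1 (chr11:60199089-60222581, minus strand) encodes the SREBP that mainly drives fatty acid synthesis, and it stood at 93.4 and 102 TPM for WT, 97.9 and 128 TPM for LEF1cKO and 209 and 129 TPM for LEF1_TCF7dKO. Double knockout replicate 1 was far above the rest, while replicate 2 lay within 1 TPM of LEF1cKO replicate 2. Srebf1 rose against WT (log2 fold change 0.70 ± 0.20 (SE), adjusted p = 0.0348). It was not called without WT replicate 1 or 2 (0.164 and 0.12) or without double knockout replicate 1 (adjusted p = 0.124), or by limma on log2(TPM + 1) (0.0678), and its adjusted p ran from 0.00386 to 0.164 over the alternatives. Scap (chr9:110333288-110384950, plus strand), the sterol-sensing escort of SREBP, stood at 66.3 and 72.9 TPM for WT, 73.7 and 85.2 TPM for LEF1cKO and 113 and 93.7 TPM for LEF1_TCF7dKO. All 6 values were of like size, with the double knockout libraries on top. Scap rose by a small amount (log2 fold change 0.41 ± 0.11 (SE), adjusted p = 0.0325), and the call was lost without WT replicate 1 or 2 (0.215 and 0.134) and without double knockout replicate 1 (adjusted p = 0.118), within a range from 0.00827 to 0.215.

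The remaining control genes did not pass. Srebf2, the SREBP that mainly drives cholesterol synthesis, stood at 93.3 and 106 TPM for WT, 108 and 106 TPM for LEF1cKO and 101 and 89.2 TPM for LEF1_TCF7dKO. The 6 libraries lay close together, and the fitted value was -0.21 (adjusted p = 0.216). Insig1, itself an SREBP target, stood at 104 and 122 TPM for WT, 112 and 83.8 TPM for LEF1cKO and 149 and 90.97 TPM for LEF1_TCF7dKO and gave -0.17 (adjusted p = 0.673). Its double knockout libraries lay on either side of the WT pair. Insig2, the less sterol-responsive INSIG gene, stood at 46.4 and 38.6 TPM for WT, 28.2 and 46.97 TPM for LEF1cKO and 67.9 and 57.5 TPM for LEF1_TCF7dKO and gave 0.37 (adjusted p = 0.173).

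Soat1 and Npc1 rose and Stard4 did not pass among the transport and storage genes. Soat1 (chr1:156424525-156474331, minus strand) stood at 8.84 and 8.73 TPM for WT, 5.55 and 37.8 TPM for LEF1cKO and 129.7 and 44.9 TPM for LEF1_TCF7dKO. The WT libraries were almost equal, whereas the values within each knockout group differed several fold, and LEF1cKO replicate 2 came close to double knockout replicate 2. Soat1 rose against WT with the largest fold change of the list (log2 fold change 3.08 ± 0.92 (SE), adjusted p = 0.0423), a fitted 8.45-fold. The call was lost without WT replicate 1 or 2 (0.132 and 0.18), without double knockout replicate 1 or 2 (0.196 and 0.0534) and by limma on log2(TPM + 1) (adjusted p = 0.0501), within a range from 0.00428 to 0.196. The log2 fold change itself stayed between 2.05 and 3.67 when a library was left out.

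Sebaceous gland markers varied between libraries in the order of Soat1. The summed level of 9 of them (Mc5r, Pparg, Scd3, Elovl3, Awat1, Awat2, Far2, Cidea and Plin5) was 66.0 and 44.8 TPM for WT, 22 and 132 TPM for LEF1cKO and 413 and 160 TPM for LEF1_TCF7dKO. The other gene on that list, Krt79, which is also a gene of the upper follicle, is left out of this sum because it made up most of the total; with it the sums were 754 and 666, 213 and 777, and 2140 and 1123 TPM. All 10 were higher in double knockout replicate 1 than in replicate 2. For 9 of 10, both double knockout libraries lay above both WT libraries, against 43.4% of all tested genes. The 9 genes tested, all but Plin5, gave 0 calls higher and 0 lower in the double knockout against WT. In that comparison 18.0% of all genes tested were called higher. Plin5 was under 1 TPM in every library. The part of these markers in the Soat1 difference was not tested. Of the 33 promoter windows of the list, 1 has a match to TCACNCCAC and 3 have a LEF/TCF type match. The Soat1 promoter is shown beside its rise and, like most of these windows, has neither, with 1 CCAAT box (chr1:156474279-156474578, minus strand).
Soat1: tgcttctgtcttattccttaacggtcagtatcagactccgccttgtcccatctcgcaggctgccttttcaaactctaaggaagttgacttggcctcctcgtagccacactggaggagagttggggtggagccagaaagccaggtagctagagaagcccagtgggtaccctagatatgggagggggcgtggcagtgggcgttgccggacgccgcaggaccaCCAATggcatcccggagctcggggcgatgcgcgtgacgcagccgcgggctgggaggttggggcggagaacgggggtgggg

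Npc1, the protein through which cholesterol leaves late endosomes and lysosomes, stood at 24.7 and 22.6 TPM for WT, 22.4 and 22.5 TPM for LEF1cKO and 39.7 and 36.9 TPM for LEF1_TCF7dKO. The 2 double knockout libraries were alike and lay above the other 4. Npc1 rose (log2 fold change 0.56 ± 0.10 (SE), adjusted p = 0.00834), and leaving out a WT library ended the call (0.0568 without replicate 1, 0.0986 without replicate 2, as adjusted p), within a range from 9.89e-05 to 0.0986. It was kept without either double knockout library (0.0459 and 0.0276). Stard4, a soluble sterol carrier and an SREBP target, stood at 31.4 and 33.9 TPM for WT, 36.4 and 29.5 TPM for LEF1cKO and 37.8 and 31.04 TPM for LEF1_TCF7dKO and gave -0.12 (adjusted p = 0.572).

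In the LXR and efflux arm both exporters rose and the receptor did not pass. Abca1 (chr4:53030787-53159895, minus strand), which moves cholesterol to lipid-poor apolipoprotein and is a classic LXR target, stood at 23.6 and 22.3 TPM for WT, 23.4 and 24.1 TPM for LEF1cKO and 46.99 and 31.9 TPM for LEF1_TCF7dKO. The WT and LEF1cKO libraries were within 2 TPM of each other, and both double knockout libraries were higher. Abca1 rose (log2 fold change 0.63 ± 0.17 (SE), adjusted p = 0.0345), with the call lost without WT replicate 1 or 2 (0.115 and 0.174) and without double knockout replicate 1 (adjusted p = 0.0843), within a range from 0.00608 to 0.174. Abcg1 (chr17:31057675-31117988, plus strand), the exporter that loads formed lipoprotein particles and also an LXR target, stood at 2.14 and 1.67 TPM for WT, 2.29 and 4.54 TPM for LEF1cKO and 12.5 and 8.27 TPM for LEF1_TCF7dKO. It was the least abundant of the 31 genes in WT, and its double knockout values lay well above all others. Abcg1 rose 4.94-fold (log2 fold change 2.30 ± 0.35 (SE), adjusted p = 0.00652) and was called in all 16 alternatives, with adjusted p from 1.39e-09 to 0.0494. Nr1h2, which encodes LXR beta, stood at 70.8 and 75.1 TPM for WT, 70.7 and 69.1 TPM for LEF1cKO and 71.3 and 86.6 TPM for LEF1_TCF7dKO and gave -0.03 (adjusted p = 0.886).

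Macrophages express much Abca1 and Abcg1, and immune markers were higher in the same libraries. The summed level of 9 macrophage and other immune markers was 137 and 54.0 TPM for WT, 226 and 377 TPM for LEF1cKO and 1032 and 969 TPM for LEF1_TCF7dKO, and 8 of the 9 rose in the double knockout against WT. Fibroblast markers (6 genes) summed to 303 and 142, 385 and 868, and 1865 and 1557 TPM, and all 6 rose. Differentiated epidermis markers (10 genes) summed to 1859 and 1510, 3286 and 3317, and 13241 and 12205 TPM, and 9 of 10 rose. In the same comparison 18.0% of all genes tested were called higher. The part of these markers in the exporter and Npc1 differences was not tested.

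**Figure D2:**
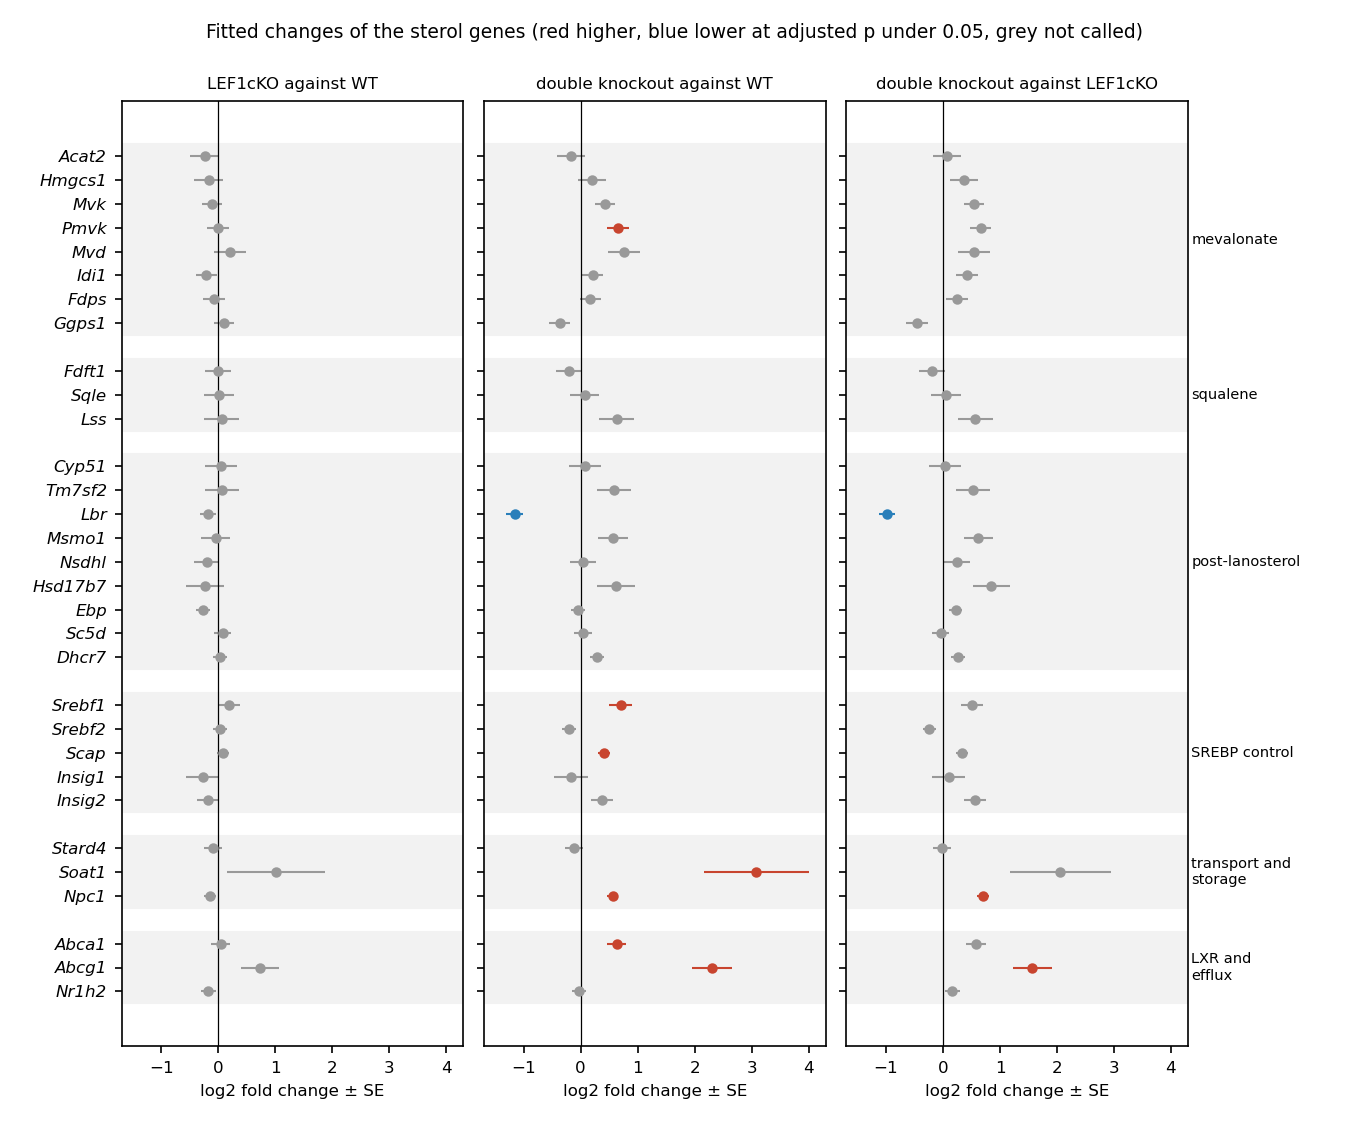
Fitted log2 fold change with its standard error for each of the 31 sterol genes in the 3 comparisons (edgeR, n = 2 libraries a group); red points rose and blue points fell at an adjusted p under 0.05, grey points were not called. No gene is coloured for LEF1cKO against WT, 8 are for the double knockout against WT, and 3 (Lbr, Npc1, Abcg1) are for the double knockout against LEF1cKO.

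The comparison of the double knockout with LEF1cKO asks what the added Tcf7 null allele goes with, and 3 of the 31 genes passed. Npc1 and Abcg1 rose and Lbr fell, which is 9.68% of the list beside 25.2% of all genes tested (11.2% higher and 14.1% lower). Npc1 gave log2 fold change 0.70 ± 0.10 (SE), adjusted p = 0.0115, Abcg1 gave log2 fold change 1.57 ± 0.34 (SE), adjusted p = 0.0258, and Lbr gave log2 fold change -0.98 ± 0.14 (SE), adjusted p = 0.0124. In all 3 genes both double knockout libraries lay outside the LEF1cKO pair. Without double knockout replicate 1 none of the 31 passed (Npc1 0.078, Abcg1 0.127, Lbr 0.083 as adjusted p), and over all tested genes that fit called 1. Without LEF1cKO replicate 1 Abcg1 was also lost (adjusted p = 0.0728). Adjusted p over the alternatives ran from 6.93e-07 to 0.078 for Npc1, 7.2e-05 to 0.127 for Abcg1 and 1.29e-06 to 0.083 for Lbr. The median log2 fold change of the 31 genes was 0.29 and 0.37 without LEF1cKO replicate 1 or 2. It was 0.11 and 0.49 without double knockout replicate 1 or 2. Over all genes tested the median was at most 0.04 in these fits.

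The other 5 genes called against WT did not pass here, and both comparisons use the same double knockout libraries. Their log2 fold changes against LEF1cKO were 2.06 (adjusted p = 0.132) for Soat1, 0.58 (adjusted p = 0.0557) for Abca1, 0.66 (adjusted p = 0.0538) for Pmvk, 0.51 (adjusted p = 0.104) for Srebf1 and 0.33 (adjusted p = 0.0779) for Scap. The median over the 31 genes was 0.33, beside 0.01 over all genes tested, and 25 lay above 0. In TPM both double knockout libraries lay above both LEF1cKO libraries for 15 genes and below for 3, against 35.0% and 29.4% of all tested genes.

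The 2 double knockout libraries differed from each other in the synthesis genes more than the other pairs did. The summed level of the 20 enzymes was 1454 and 1666 TPM for WT, 1481 and 1570 TPM for LEF1cKO and 2342 and 1514 TPM for LEF1_TCF7dKO. Only double knockout replicate 1 stood above the rest, and replicate 2 lay within the WT range. As means, the sums were 1560 ± 150 TPM for WT, 1526 ± 62.7 TPM for LEF1cKO and 1928 ± 585 TPM for LEF1_TCF7dKO (SD, n = 2 each). No test was run on these sums. Replicate 1 was above replicate 2 for 19 of the 20 enzymes, Ebp being the exception, and for 29 of all 31 genes, with a median log2 ratio of 0.56, while 54.7% of the tested genes above 0 in both libraries were higher in replicate 1 (median 0.04). Replicate 1 was the higher for 9 of the 31 genes within WT (median -0.14) and for 11 within LEF1cKO (median -0.13).

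The median log2 fold change against WT moved with the library left out. Without double knockout replicate 1 the median of the 31 genes was 0.04, beside -0.01 over all genes tested. Without double knockout replicate 2 it was 0.42, beside 0.0 over all genes tested. Without WT replicate 1 or 2 it was 0.09 and 0.3, beside 0.05 and 0.03. Over all genes tested, fewer were called in each of these fits than with all 6 libraries, so a lost call is not particular to the sterol genes. Each of these fits leaves 1 group with a single library, which is then assumed to vary like the other groups.

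**Figure D3:**
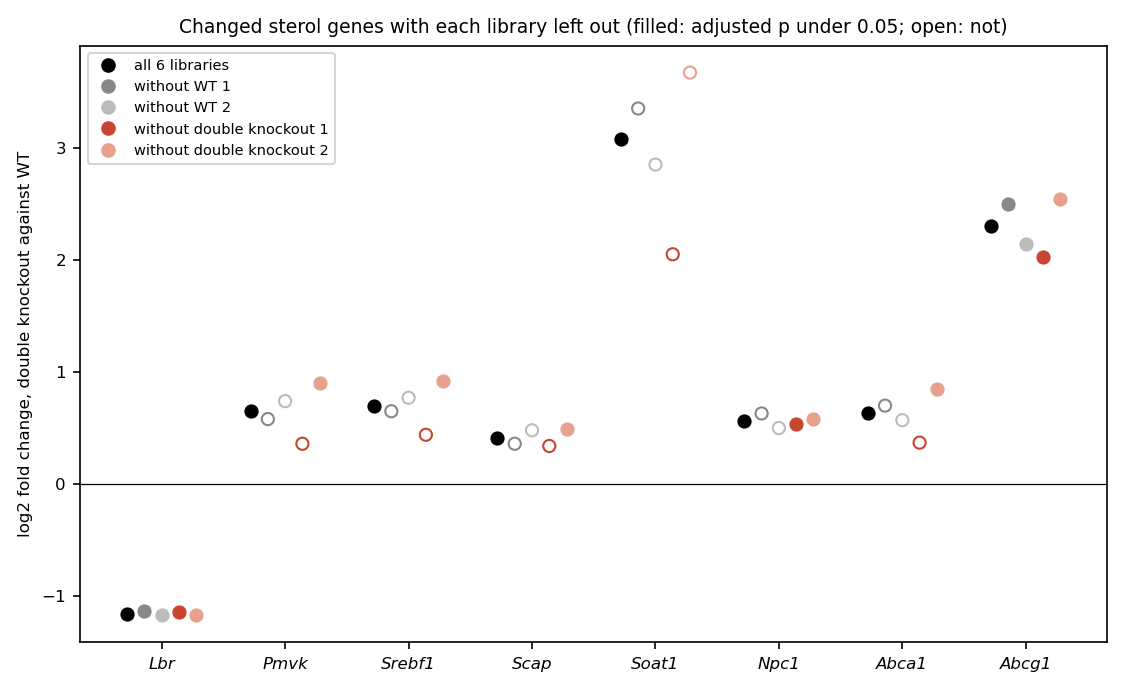
Log2 fold change of the 8 called genes in the double knockout against WT, with all 6 libraries (black) and with each WT or double knockout library left out; filled points have an adjusted p under 0.05. Lbr and Abcg1 are filled throughout, Npc1 is open only without a WT library, and the points without double knockout replicate 1 are the lowest for Pmvk, Srebf1, Scap, Soat1, Abca1 and Abcg1.

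Double knockout replicate 1 was also the library highest in adipocyte markers. Their sum over 5 genes was 205 TPM there and 4.11 to 10.7 TPM in the other 5 libraries. Of the defining genes, Adipoq stood at 14.4 TPM in double knockout replicate 1 and was listed at 0 to 0.33 TPM elsewhere, and Cfd stood at 120.2 TPM against 0.04 to 0.69 TPM. The 5 endothelial markers summed to 63.6 TPM in that library and to 5.69 to 13 TPM in the others. The part of these markers, and of the sebaceous markers above, in the higher enzyme levels of that library was not tested.

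**Figure D4:**
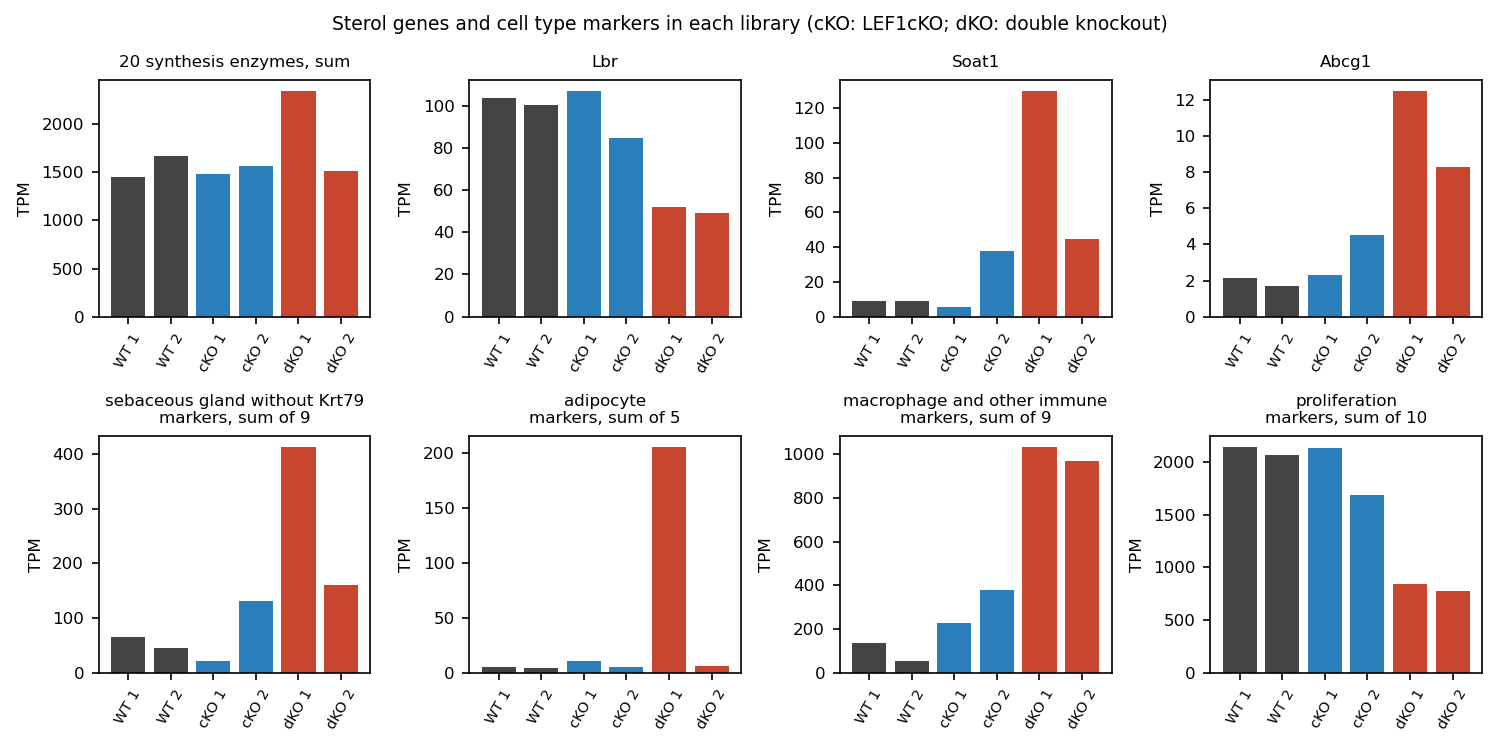
TPM in each library of the summed 20 synthesis enzymes, Lbr, Soat1 and Abcg1 (top) and of summed marker lists (bottom), 1 bar a library. Soat1 and the sebaceous sum are both highest in double knockout replicate 1 (129.7 and 413 TPM), the adipocyte sum stands out in that library alone (205 TPM), and the immune sum is high in both double knockout libraries.

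Genes of the same pathways outside the list were called at shares below or near that of all genes in the double knockout against WT. Of 10 other SREBP pathway genes tested, 2 rose and 1 fell. Erlin1 and Erlin2, whose proteins bind the SREBP complex and restrain it, rose (log2 fold change 0.65 ± 0.14 (SE), adjusted p = 0.0179 and log2 fold change 0.48 ± 0.11 (SE), adjusted p = 0.0212). Mbtps1, the protease that makes the first cut in SREBP, fell from 82.3 and 83.7 TPM in WT to 65.6 and 66.0 TPM (log2 fold change -0.47 ± 0.09 (SE), adjusted p = 0.0111). Erlin1 and Mbtps1 were lost with either WT library or double knockout replicate 1 left out (adjusted p up to 0.108 and 0.121), and Erlin2 also without double knockout replicate 2 (up to 0.18). Against LEF1cKO 1 of the 10 fell, Mbtps1 (log2 fold change -0.45 ± 0.09 (SE), adjusted p = 0.0212), called in 1 of the 6 fits with 1 library left out (up to 0.103), and none rose.

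Of 8 other LXR genes, 2 rose and none fell. Mylip, an LXR target whose protein marks lipoprotein receptors for degradation, stood at 15.6 and 16.5 TPM for WT, 15.04 and 17.3 TPM for LEF1cKO and 28.8 and 28.1 TPM for LEF1_TCF7dKO. Its 4 WT and LEF1cKO libraries lay together, below both double knockout libraries, and it rose (log2 fold change 0.69 ± 0.10 (SE), adjusted p = 0.00583), with an adjusted p of up to 0.0549 without a WT library. Smpdl3a, a phosphodiesterase gene and LXR target, also rose (log2 fold change 0.63 ± 0.18 (SE), adjusted p = 0.038), though not with any 1 of the WT or double knockout libraries left out (up to 0.202). Against LEF1cKO 2 of the 8 rose, beside 11.2% of all genes tested that were called higher there, Mylip by log2 fold change 0.75 ± 0.10 (SE), adjusted p = 0.0113 and Smpdl3a by log2 fold change 0.76 ± 0.18 (SE), adjusted p = 0.0313. Without double knockout replicate 1 neither was called there (adjusted p up to 0.078 and 0.118), and Smpdl3a was lost with any 1 library other than LEF1cKO replicate 2 left out.

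Of 11 other sterol transport genes, 3 rose against WT. Gramd1b, which carries cholesterol from the plasma membrane to the endoplasmic reticulum, stood at 1.12 and 1.25 TPM for WT, 1.79 and 2.24 TPM for LEF1cKO and 4.08 and 4.26 TPM for LEF1_TCF7dKO. It rose (log2 fold change 1.87 ± 0.29 (SE), adjusted p = 0.00663) and was called against WT in all 16 alternatives (adjusted p from 5.74e-08 to 0.0497). Osbpl2, an oxysterol-binding protein family gene, and Stard5, a sterol carrier gene, rose as well (log2 fold change 0.79 ± 0.15 (SE), adjusted p = 0.0112 and log2 fold change 1.08 ± 0.34 (SE), adjusted p = 0.0496). Against WT, Osbpl2 was lost without WT replicate 2 or double knockout replicate 1 (up to 0.0903), and Stard5 with any 1 of the WT or double knockout libraries left out (up to 0.196). Against LEF1cKO 4 of the 11 rose, beside 11.2% of all genes tested that were called higher there. The log2 fold changes were 1.19 (adjusted p = 0.0311) for Gramd1b, 0.55 (adjusted p = 0.0443) for Osbpl2, 1.28 (adjusted p = 0.0409) for Stard5 and 0.41 (adjusted p = 0.0375) for Gramd1a, a relative of Gramd1b that is named after its values were seen. Most of these calls were lost when 1 library was left out: of the 6 such fits, Gramd1b was called in 1 (adjusted p up to 0.106), Osbpl2 in 1 (up to 0.178), Stard5 in 2 (up to 0.151) and Gramd1a in 1 (up to 0.141).

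Of 13 genes that use the isoprenoid branch, Rabggta rose and Rabggtb fell; the 2 encode the subunits of the enzyme that prenylates Rab proteins (log2 fold change 0.41 ± 0.11 (SE), adjusted p = 0.027 and log2 fold change -0.53 ± 0.13 (SE), adjusted p = 0.025). Both were lost with any 1 of the WT or double knockout libraries left out (up to 0.208 and 0.143). Of 8 fatty acid synthesis genes, Elovl6 and Scd1 rose and Scd2 fell. Elovl6, a fatty acid elongase, stood at 37.9 and 33.04 TPM for WT, 28.01 and 131 TPM for LEF1cKO and 504 and 139 TPM for LEF1_TCF7dKO, and Scd1, a desaturase abundant in sebaceous glands, at 129 and 115 TPM for WT, 96.1 and 351 TPM for LEF1cKO and 1148 and 379 TPM for LEF1_TCF7dKO. Both were highest in double knockout replicate 1 and nearly equal in LEF1cKO replicate 2 and double knockout replicate 2, like Soat1. The values were log2 fold change 3.07 ± 0.84 (SE), adjusted p = 0.0331 for Elovl6 and log2 fold change 2.50 ± 0.71 (SE), adjusted p = 0.0363 for Scd1, lost with either WT library or double knockout replicate 1 left out (up to 0.159 and 0.176). Scd2 gave log2 fold change -0.84 ± 0.18 (SE), adjusted p = 0.0145, lost with either WT library left out (up to 0.0916). Against LEF1cKO none of the 13 passed, and of the 8 Scd2 alone did (log2 fold change -0.80 ± 0.18 (SE), adjusted p = 0.0264), called in 1 of the 6 fits with 1 library left out (up to 0.0777). In LEF1cKO against WT edgeR and DESeq2 called 0 of the 50 genes of these 5 lists, and 1 had an unadjusted p under 0.05.

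RefSeq promoter windows were matched for 25 of the 31 genes, 33 windows of 300 bases in all, and each motif was sought on both strands. The CCAAT box was present in 22 of the 33 (66.7%, against 37.4% of all 32851 promoters in the table), and the GC box GGGCGG in 26 (78.8% against 35.7%). The sterol regulatory element TCACNCCAC was present in 1 (3.0% against 1.2%). A LEF/TCF type match was present in 3 (9.1% against 16.9%), in Hmgcs1, Hsd17b7 and Pmvk, of which Pmvk was called in the double knockout. A match is a description of letters in these windows. Other forms of the sterol regulatory element, and sites outside the windows, were not sought. Fdps, Fdft1, Sqle, Npc1, Stard4 and Abcg1 had no entry in the table.

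The deposited transcript lengths, which RSEM weights by isoform, differed between libraries by at most 1.14 times for 27 of the 31 genes. The largest ratio was that of Soat1 (1.38, from 3592 to 4943 bases), followed by Hsd17b7 (1.23), Cyp51 (1.2) and Insig2 (1.17). For 3 genes near-identical copies exist elsewhere in the genome: Acat3 for Acat2, and processed pseudogenes for Fdps and Idi1. These copies held at most 2.38 TPM, and summing them with the gene changed no call of the list. Whether counting used strand is not stated, so reads in shared exons of opposite genes cannot be told apart: Npc1 shares 511 bases (4.5% of its exonic length) with Rmc1, Scap 13.2% with 5830462I19Rik, Lbr 9.2% with Dnah14 and Fdft1 18.3% with Ctsb. Dnah14 was at 0.07 TPM or less in every library, Rmc1 at 22.7 to 37.6 TPM and Ctsb at 149 to 205 TPM. 5830462I19Rik stood at 1.08 and 1.05 TPM for WT, 1.23 and 1.25 TPM for LEF1cKO and 2.7 and 1.55 TPM for LEF1_TCF7dKO. The part of that gene in the Scap difference was not tested. On the same strand, Fdps shares 26.7% with Gm43738 (0.16 TPM or less) and Tm7sf2 shares 12.1% with Vps51 (43.7 to 56.3 TPM).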

How the data were processed

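RNA-seq of sorted hair germ cells was analysed in 6 libraries, 2 each of WT, LEF1cKO and LEF1_TCF7dKO, grouped by title and genotype labels. Bowtie2 2.2.9, RSEM 1.2.30 and build mm10 are named in the submitters' processing notes. Expected counts and TPM per gene are the authors' deposited RSEM values; the deposited FPKM values were not used. The 92 spike-in identifiers, all at 0, were removed. Expected counts were rounded, filtered by filterByExpr (19640 genes kept), scaled by TMM (factors 0.962 to 1.04) and tested with edgeR 4.0.16 (glmQLFit, glmQLFTest, R 4.3.3) over all 6 libraries with Benjamini-Hochberg adjustment at 0.05. The common biological coefficient of variation was 0.232, with 3 residual degrees of freedom. Alternatives used RLE factors, library size alone, other filters, DESeq2 1.42.0, limma 3.58.1 on log2(TPM + 1 or 0.1), 2 groups alone, a replicate block, summed copies (blastn 2.17.0) and each library left out. The genes, pathway and marker lists were chosen with earlier results of these data known. All 31 genes are accounted for, and those past 0.05 are given in full; of each other pathway list up to 4 genes with the smallest p among those past 0.05 are named. Gene positions are from GENCODE M21 on mm10.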

Additional observations from a re-analysis of the deposited data

How the results depend on the processing

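In LEF1cKO against WT, 0 of the 31 genes were called in every alternative run. In the double knockout against WT the 8 called genes became between 2 and 12 with 1 library left out and 4 with the replicate number as a block; the other alternatives gave 6 to 10. In the double knockout against LEF1cKO the 3 called genes became 8 with no filter, 8 with a filter of 10 CPM, 10 with DESeq2 and between 0 and 9 with 1 library left out. The cause was not tested. The labels do not say whether replicate numbers pair the libraries. Deviations from the group means correlated by -0.0421, 0.0558 and -0.0276 over 19640 genes, so no broad shift shared by replicate number was seen. With 2 libraries a group this cannot exclude pairing. With the block 3 genes were called against LEF1cKO. Against WT the edgeR fit with the block lost Pmvk, Srebf1, Scap and Soat1 (adjusted p = 0.0644, 0.0611, 0.0635 and 0.0676). Without double knockout replicate 1 the fitted value of Hsd17b7 against WT turned to -0.02 and that of Lss against LEF1cKO to -0.01, where leaving out 1 library each gave up to 1.06 and 0.98. Over all tested genes, LEF1cKO against WT had 118 calls, 422 with no filter and 612 with DESeq2. Scaling the enzyme sums by dividing TPM by the TMM factor, an alternative worded after the data were seen in place of its inverse, gave means of 1598, 1534 and 1871 TPM for WT, LEF1cKO and the double knockout. Depth was not varied, so its part in these limits was not tested.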
